A study of Saccharomyces cerevisiae with 6 samples.

Results

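The histone genes of baker's yeast (Saccharomyces cerevisiae) were followed in RNA that co-purified with the proteins Mex67 or Npl3, or in a mock precipitation, before and after heat. The members were chosen by name: HTA1 and HTA2 (histone H2A), HTB1 and HTB2 (H2B), HHT1 and HHT2 (H3), HHF1 and HHF2 (H4), HTZ1 (the variant H2A.Z) and HHO1 (the linker histone H1). Of these 10 genes, 9 had a probe set listed under their own locus, out of 5667 S. cerevisiae loci on the array, and together they had 10 probe sets. HHF2 had none of its own: the H4 probe set is listed under HHF1, but its title names both H4 genes. HTA2 had a probe set of its own and another whose title names both H2A genes, so 2 of the 10 probe sets are shared by paralogues and show the sum of a pair of transcripts.

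Core histones package DNA into nucleosomes, and in yeast their genes are transcribed in a burst when cells copy their DNA. The 8 core genes lie as divergent pairs that share an upstream region, HTA1 beside HTB1, HTA2 beside HTB2, HHT1 beside HHF1 and HHT2 beside HHF2. H2A.Z takes the place of H2A in particular nucleosomes, and H1 binds the DNA between them. Unlike most animal histone mRNAs, those of yeast carry a poly(A) tail. Npl3, an SR-like protein, binds transcripts while they are made and helps to recruit Mex67, the export receptor that takes mRNA out of the nucleus.

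The 6 groups held 1 array each. They were the Mex67 precipitate (strain HKY1266) at 42 °C and at 25 °C, the Npl3 precipitate (strain HKY157) at 42 °C and at 25 °C, and the no tag control (label HKY36/HKY381) at 42 °C and at 25 °C. Cells in all groups were grown at 25 °C in YPD medium, held for 30 min at the stated temperature, crosslinked with UV light and precipitated with c-myc antibody beads and GFP-Trap beads. The labels give neither the tag nor the promoter of either protein, nor whether the pair of control strains was pooled. With no replicates, every value below is a single measurement, and no p-value was computed. The heat effect of a group can therefore not be told apart from the difference between a pair of hybridisations.

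Values are the authors' normalized log2 values, so a difference of 1 is 2-fold, and they are relative to the other mRNAs on the same array. A probe set is set against itself across arrays; values of different probe sets were not compared as mRNA levels. S. cerevisiae loci had medians of 11.13 to 11.18 and S. pombe probe sets, whose targets were not in the samples, medians of 3.96 to 4.02. Labelling spikes had medians of 5.01 (Mex67, 42 °C), 6.35 (Mex67, 25 °C), 5.40 and 5.22 (Npl3, 42 °C and 25 °C) and 6.64 and 6.65 (no tag, 42 °C and 25 °C). The actin 3' probe set lay above the 5' one by 0.80 and 0.55, by 1.10 and 1.35 and by 0.56 and 0.53 on the same arrays. The arrays were assigned to 42 °C and 25 °C by reading S and US in the column names as stressed and unstressed; HSP26, a small heat shock protein, was higher on the S array by 4.79 with Mex67, 3.92 with Npl3 and 5.68 in no tag. The strains also differed in mating type markers. All 5 MATa genes were at least 2-fold higher in Mex67 and in Npl3 than in no tag at both temperatures, and all 4 MATalpha genes at least 2-fold lower, except that 3 of 4 were in Mex67 at 42 °C. These markers also differed with heat: the MATa median was -1.94 with Mex67, -0.79 with Npl3 and -0.16 in no tag, and the MATalpha median 0.72, -0.41 and -1.46. Some of these medians rest on low signal. MF(ALPHA)1, MF(ALPHA)2 and STE3 were at 6.10 to 8.54 with Mex67 and Npl3, and SAG1 at 10.04 to 10.93. In no tag STE2, BAR1 and AGA2 were at 7.33 to 9.12, and MFA1 and MFA2 at 10.01 to 11.04. The part of the markers in the histone results was not tested. All histone probe sets lay well above the background floor, the 95th percentile of S. pombe probe sets, which was at most 5.12. The 14 S. pombe probe sets with titles of histone H2A, H2B, H3 or H4 had medians of 3.92 to 4.12. On each array 1 of the 14 was above the floor. As probes for another species, they cannot show whether S. cerevisiae paralogues share signal.

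In all 3 precipitates most histone mRNAs were lower at 42 °C than at 25 °C, and some paralogues differed in how far. HTA2, HTB2, HHT1, HTZ1 and HHO1 were the histones with the lowest differences, at -1.77 to -0.51 on the log2 scale over the 3 precipitates. HTA1, HTB1, HHT2 and the H4 probe set stayed between -0.55 and 0.094. This division also followed the signal of the probe sets. Mean log2 values over all arrays were 13.12 to 13.69 for HTA1, HTB1, HHT2 and the H4 probe set. They were 11.14 to 12.60 for HTA2 (own probe set), HTB2, HHT1, HTZ1 and HHO1. The part of signal level in the size of the differences was not tested. The medians over the 9 loci, for which the HTA2 probe sets were averaged, were -0.72 with Mex67, -0.51 with Npl3 and -0.93 in no tag. All S. cerevisiae loci had medians of 0.03, 0.01 and 0.00.

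**Figure D1:**
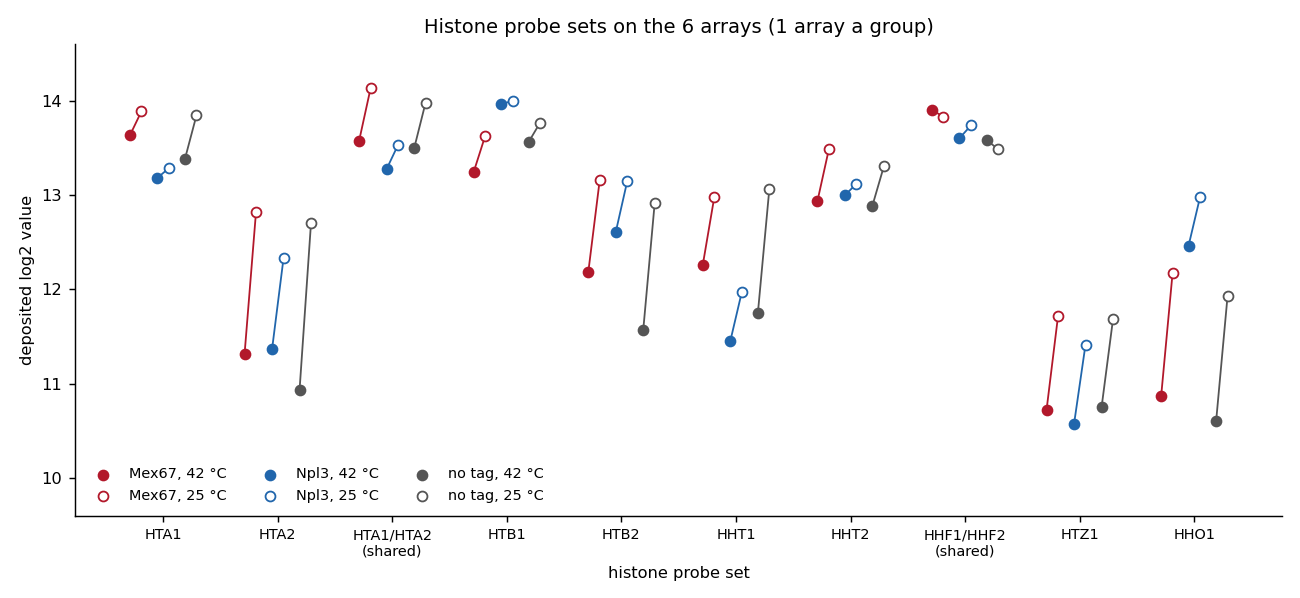
Deposited log2 values (vertical axis) of the 10 histone probe sets (horizontal axis) on the 6 arrays. Filled points are 42 °C and open points 25 °C, with 1 array each, and lines join the pair of a precipitate. The filled point is the lower of the pair except for the shared H4 probe set with Mex67 and in no tag.

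H2A showed the widest gap between paralogues. The probe set of HTA2 alone was at 11.31 at 42 °C and 12.82 at 25 °C with Mex67, at 11.36 and 12.33 with Npl3, and at 10.93 and 12.70 in no tag. These are differences of -1.51, -0.96 and -1.77, or 2.84-fold, 1.95-fold and 3.42-fold lower at 42 °C. The 3 heated arrays all lay below the 3 unheated ones. For this and the like separations given below, the share of all loci that separate so was not computed. The 3 precipitates are not replicates of each other. HTA1, which codes for a nearly identical H2A, was at 13.63 and 13.89 with Mex67, at 13.18 and 13.28 with Npl3, and at 13.38 and 13.84 in no tag. Its differences were -0.25, -0.10 and -0.46, and the heated and unheated arrays overlapped. The heat difference of HTA2 minus that of HTA1 was thus -1.26, -0.86 and -1.31. The probe set shared by both H2A genes was at 13.57 and 14.13, at 13.27 and 13.53, and at 13.49 and 13.98 in the same order, with differences of -0.56, -0.26 and -0.48. These lie between the differences of the single genes, and in no tag close to that of HTA1. The paralogues are nearly identical in sequence, and how much signal a probe set named for 1 of them takes from the other was not tested.

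H2B divided in the same way. HTB2, the neighbour of HTA2, was at 12.18 at 42 °C and 13.16 at 25 °C with Mex67, at 12.61 and 13.14 with Npl3, and at 11.57 and 12.92 in no tag. The differences were -0.98, -0.54 and -1.35, and all heated arrays lay below all unheated ones. HTB1, the neighbour of HTA1, was at 13.24 and 13.62, at 13.96 and 14.00, and at 13.56 and 13.77, with differences of -0.38, -0.04 and -0.21. For HTB1 the arrays differed more by precipitate than by heat, with Npl3 highest at both temperatures. The heat difference of HTB2 minus that of HTB1 was -0.60, -0.50 and -1.14. In each precipitate HTA2 and HTB2 were thus both lower in heat difference than HTA1 and HTB1. Their probe sets also had the lower signal, and the part of this in the result was not tested. Between neighbours, the heat difference of HTA2 was lower than that of HTB2, with gaps of -0.53, -0.43 and -0.43. HTA1 and HTB1 differed by 0.13, -0.06 and -0.25.

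H3 and H4 form the other two pairs. HHT1 was at 12.26 at 42 °C and 12.98 at 25 °C with Mex67, at 11.45 and 11.97 with Npl3, and at 11.74 and 13.06 in no tag, which are differences of -0.72, -0.52 and -1.32. The heated and unheated arrays of HHT1 overlapped, because its value with Npl3 was low at both temperatures. HHT2, which codes for an identical H3 protein, was at 12.93 and 13.48, at 13.00 and 13.12, and at 12.89 and 13.30. Its differences were -0.55, -0.12 and -0.42, and each heated array lay below each unheated one. The gap between HHT1 and HHT2 was -0.90 in no tag, and -0.16 with Mex67 and -0.40 with Npl3. The probe set for both H4 genes was at 13.90 and 13.83 with Mex67, at 13.60 and 13.74 with Npl3, and at 13.58 and 13.48 in no tag. It was the histone probe set with the smallest range over the 6 arrays, 0.42, and its differences of 0.075, -0.13 and 0.094 cannot be assigned to either H4 gene.

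The variant and the linker histone were lower at 42 °C in each precipitate. HTZ1 was at 10.72 and 11.71 with Mex67, at 10.57 and 11.41 with Npl3, and at 10.75 and 11.68 in no tag. Its differences of -0.99, -0.84 and -0.93 were alike in the 3 precipitates, and the heated arrays all lay below the unheated ones. HHO1 was at 10.86 and 12.17 with Mex67 and at 10.60 and 11.93 in no tag, differences of -1.31 and -1.33. With Npl3 it was at 12.46 and 12.98, a difference of -0.51, and both Npl3 arrays lay above the other 4.

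**Figure D2:**
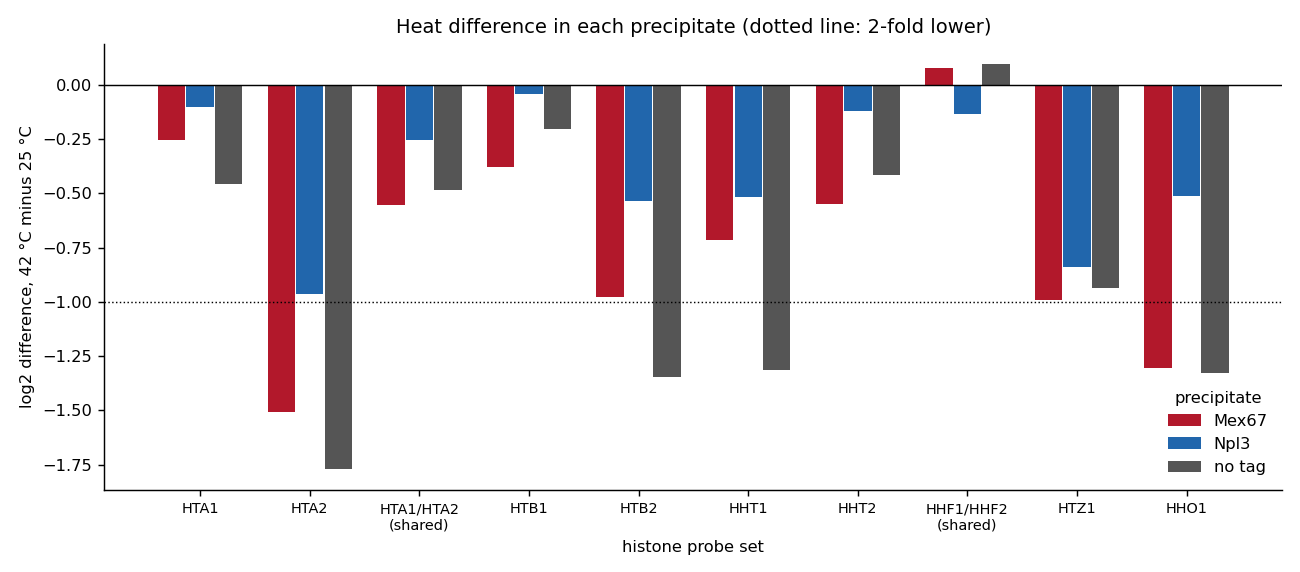
Difference of log2 values, 42 °C minus 25 °C (vertical axis), for the 10 histone probe sets in the Mex67, Npl3 and no tag precipitates, with 1 bar from a pair of arrays each. The dotted line marks 2-fold lower. HTA2, HTB2, HHT1, HTZ1 and HHO1 reach furthest down, and in 4 of these 5 the Npl3 bar is the shortest and the no tag bar the longest.

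Counted by locus at 2-fold, 2 of 9 histones were lower with Mex67 (HTA2 and HHO1), where 12.2% of all 5650 loci were. None of 9 was at least 2-fold lower with Npl3, where 1.38% of 5634 loci were. In no tag 4 of 9 were lower (HTA2, HTB2, HHT1 and HHO1), where 2.07% of 5647 loci were. HTZ1 at -0.99 and HTB2 at -0.98 with Mex67 lay just inside 2-fold. No histone was at least 2-fold higher with heat in any precipitate, against 15.4%, 2.11% and 6.69% of all loci with Mex67, with Npl3 and in no tag. Differences below 0 were seen in 8 of 9, 9 of 9 and 8 of 9 histones, against 48.4%, 48.6% and 49.8% of all loci.

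Histone mRNAs are short, with coding lengths of 312 to 777 bp among the measured genes, and short mRNAs as a whole were lower with heat. The loci in this length range, histones and ribosomal proteins included, had a median heat difference of -0.46 with Mex67, -0.08 with Npl3 and -0.23 in no tag. In each case this is nearer to 0 than the histone median. HHO1 alone set the upper end of the range, and the other measured histones had 312 to 411 bp. The range is therefore not closely matched to most histones. When the trend with coding length over all loci was removed, the histone median was -0.14 with Mex67, -0.41 with Npl3 and -0.64 in no tag. At least 2-fold lower were then 0 of 9 histones with Mex67, 0 with Npl3 and 3 in no tag. The share of all loci at least 2-fold lower with the trend removed was not computed. The Mex67 pair of arrays also differed in the labelling spikes (5.01 and 6.35), while the no tag pair did not (6.64 and 6.65); the part of this in the result was not tested.

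Ribosomal protein mRNAs, which are also short and abundant, had heat differences unlike those of the histones with Mex67. Their median over 130 genes was -2.28 with Mex67, against -0.22 with Npl3 and -0.53 in no tag, and 123 of 130 were at least 2-fold lower with Mex67. The histone medians of the same pairs were -0.72, -0.51 and -0.93, so that the histone median was the lower of the pair in no tag and with Npl3 and the higher with Mex67. This difference between lists rests on single arrays and has no test.

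**Figure D3:**
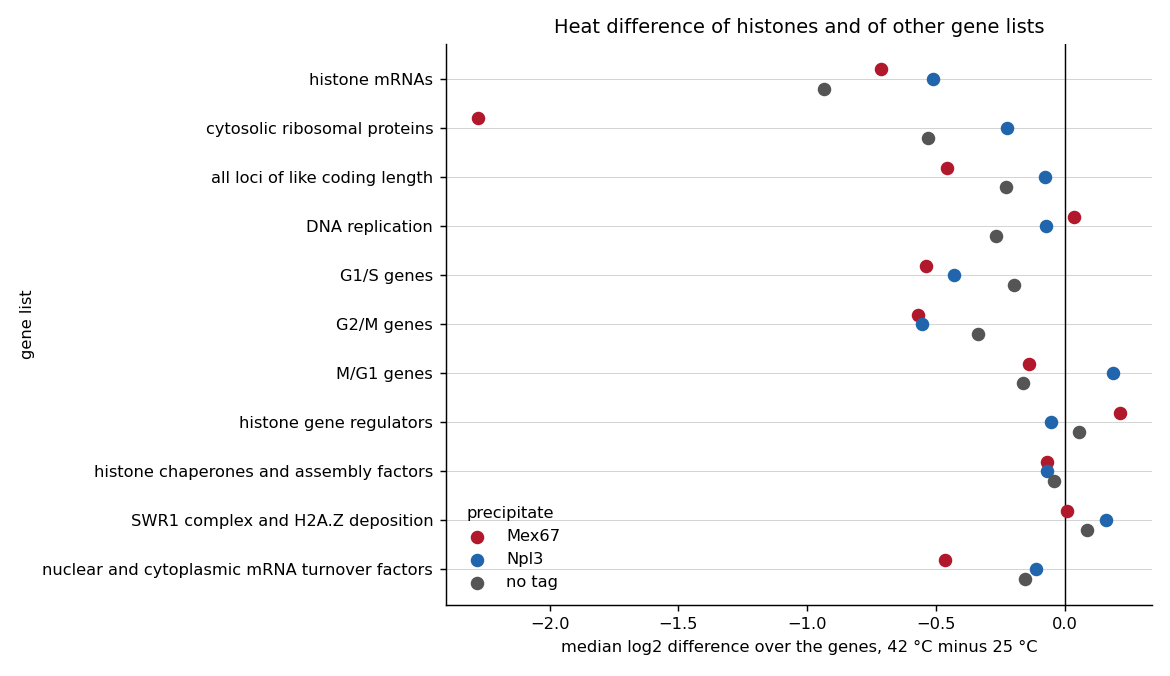
Median log2 difference, 42 °C minus 25 °C (horizontal axis), for the histones and 10 other sets of genes (vertical axis) in the Mex67, Npl3 and no tag precipitates, with 1 point per set and precipitate. The 3 histone points lie between -0.93 and -0.51, and the ribosomal protein point with Mex67 lies apart at -2.28.

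The heat difference of each precipitate was next taken over that of no tag. The values are relative to each array and no input RNA was arrayed, so this compares composition and does not measure binding. For Mex67 the histone median was 0.02 and for Npl3 0.36, against -0.00 for all loci in both. With Mex67 the 9 loci ranged from -0.18 (HTB1) to 0.60 (HHT1) and 4 of 9 lay below 0, where 50.1% of loci did. Loci in the length range of the histones had a median of -0.25, and 0 of 9 histones lay below it; with the length trend removed the histone median was 0.27, and without shared probe sets 0.11. No histone was at least 2-fold apart either way, where 10.5% of loci were. Ribosomal proteins had a median of -1.74 in this comparison. With Npl3, 8 of 9 lay above 0, where 50% of loci did, and none was 2-fold apart, where 5.43% of loci were. Other short mRNAs also lay above 0 in this comparison. Loci in the length range of the histones had a median of 0.15, and 2 of 9 histones lay below it. Of the ribosomal proteins 124 of 130 lay above 0, with a median of 0.27. HTA2 (own probe set), HTB2, HHT1 and HHO1 were at 0.81, 0.81, 0.80 and 0.81, that is about 1.75-fold less lowered than in the mock. Of all tested loci, 97.5%, 97.5%, 97.3% and 97.6% lay below these values. The same 4 genes had the lowest differences in the no tag pair, and as that pair enters both values with opposite sign, the 2 observations are not independent. With the length trend removed the Npl3 median was 0.14, below the 0.27 of Mex67, and without shared probe sets it was 0.58. Which of the 2 medians is higher thus depends on the length trend.

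The Mex67 precipitate held histone mRNAs at levels close to those of no tag. At 42 °C the median over 9 loci was 0.25 and the range -0.32 (HTB1) to 0.61 (HTB2). HHT1 was at 0.52, HTA2 (own probe set) at 0.38, the H4 probe set at 0.32 and HHO1 at 0.26. At 25 °C the median was 0.13, with a range of -0.14 (HTB1) to 0.34 (H4). No histone differed at least 2-fold at either temperature, against 12.8% of loci at 42 °C and 1.4% at 25 °C. HTB1 was below 0 at both temperatures, and the probe sets other than those of HTB1, HHT1 and HTZ1 were above 0 at both. HTZ1 was at -0.027 and 0.031. Ribosomal proteins had a median of -1.65 at 42 °C and 0.07 at 25 °C in the same comparison. The comparisons of Mex67 and of Npl3 over no tag share the control arrays.

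The Npl3 precipitate differed more from no tag, and in both directions. HHO1, the linker histone, was higher with Npl3 by 1.86 at 42 °C (12.46 against 10.60) and by 1.05 at 25 °C (12.98 against 11.93), or 3.64-fold and 2.07-fold. HTB2 was higher by 1.04 at 42 °C and by 0.23 at 25 °C. HHT1 was lower at 25 °C, with a difference of -1.09 (11.97 against 13.06), and at -0.29 at 42 °C. At least 2-fold higher were 2 of 9 histones at 42 °C, where 18.7% of loci were, and 1 of 9 at 25 °C, where 18.1% were. At least 2-fold lower were 0 of 9 at 42 °C and 1 of 9 at 25 °C, where 19.4% and 15.1% of loci were. The shares are close to or below those of all loci. Some of these calls sit at the threshold: with S. pombe centring or quantile normalization 1 of 9 was higher at 42 °C, and with quantile normalization 0 of 9 at 25 °C.

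Among the core histones, the H2B genes and the H4 probe set lay above 0 with Npl3 at both temperatures. HTA1, the shared H2A probe set and HHT1 lay below 0 at both, as did the variant HTZ1. HTB1 was at 0.40 at 42 °C and 0.23 at 25 °C, HTA1 at -0.20 and -0.56, the shared H2A probe set at -0.22 and -0.45, and HTZ1 at -0.17 and -0.27. The H4 probe set had values of 0.02 and 0.25 in the same order. HTA2 (own probe set) was at 0.43 and -0.38 and HHT2 at 0.11 and -0.19. The medians were 0.11 at 42 °C and -0.19 at 25 °C, against -0.14 and -0.08 for all loci. Loci with coding lengths in the range of the histones had higher medians, 0.71 and 0.58, and 7 of the 9 histones lay below those at 42 °C and 8 of 9 at 25 °C. With the length trend removed, the histone medians were -0.998 at 42 °C and -1.11 at 25 °C, and 4 and 5 of the 9 histones were at least 2-fold lower. No share of all loci was computed in that setting to set beside these counts. The Npl3 and no tag arrays differ in spikes and in the actin 3' to 5' difference as given above, and come from different strains; the part of these in the result was not tested.

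**Figure D4:**
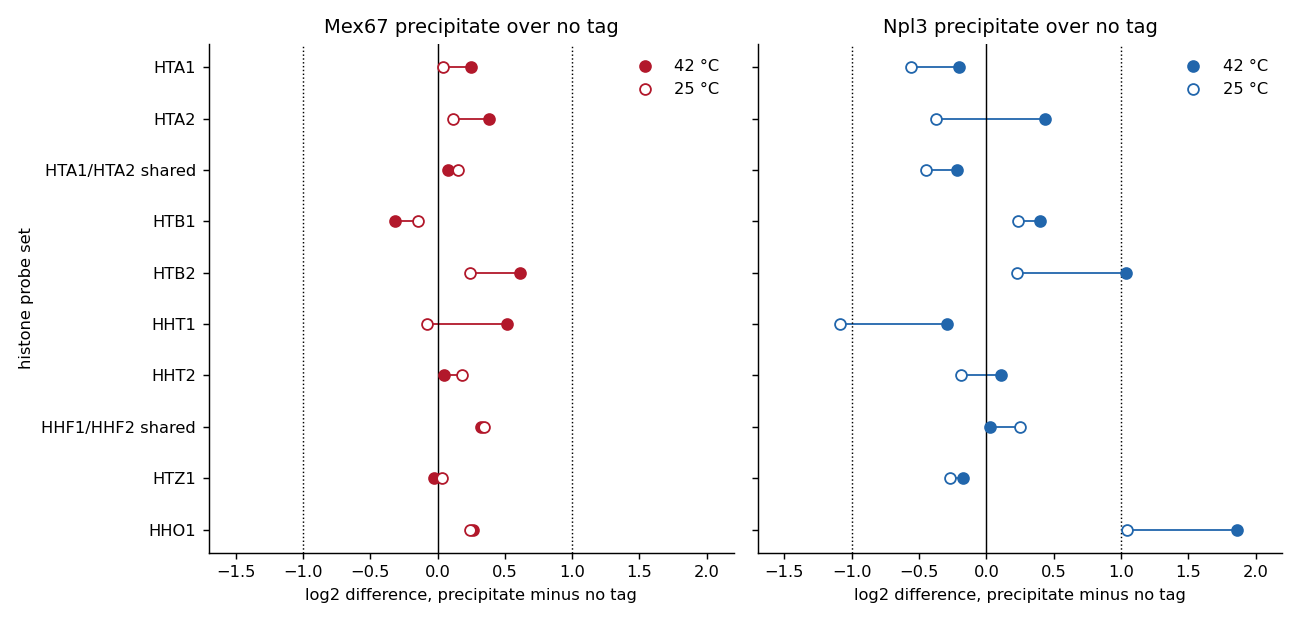
Log2 difference of the Mex67 (left) and Npl3 (right) precipitates over no tag (horizontal axis) for each histone probe set (vertical axis), filled at 42 °C and open at 25 °C, from single arrays. Dotted lines mark 2-fold. All Mex67 points lie within 2-fold, while with Npl3 HHO1 lies beyond it at both temperatures, HTB2 at 42 °C and HHT1 at 25 °C.

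Set directly against Npl3, the Mex67 precipitate held less HHO1 at 42 °C, with a difference of -1.60, and at 25 °C, with -0.81. It held more HHT1, by 0.81 at 42 °C and 1.01 at 25 °C, and more HTA1, by 0.45 and 0.60. HTB1 was at -0.72 and -0.38. The medians over 9 loci were 0.12 at 42 °C and 0.30 at 25 °C. At 42 °C 1 of 9 was at least 2-fold lower, where 20.2% of loci were, and none was higher, where 22.5% were. At 25 °C 1 of 9 was at least 2-fold higher, where 12.1% were, and none was lower, where 15.2% were. This call at 25 °C was lost with S. pombe centring. With the length trend removed the medians were 1.51 and 1.14, and 6 of 9 histones were at least 2-fold higher at each temperature. The share of all loci higher in that setting was not computed. Without shared probe sets the median at 42 °C was -0.058. Among neighbours, HTA1 lay above HTB1 by 1.17 and 0.98, and HTA2 (own probe set) above HTB2 by 0.38 and 0.48.

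Genes that act on histones, in mRNA turnover, in DNA replication or in the cell cycle were counted for the heat differences. These counts are read against all loci, of which 12.2%, 1.38% and 2.07% were at least 2-fold lower and 15.4%, 2.11% and 6.69% higher with Mex67, with Npl3 and in no tag. Of 13 regulators of histone genes, among them the HIR complex and the activators SPT10 and SPT21, 1 was at least 2-fold higher with Mex67 and none lower. None was 2-fold apart with Npl3 or in no tag, and the medians were 0.21, -0.05 and 0.05. The ends were YTA7, a bromodomain ATPase, at 1.10 and SWI6 at -0.96 with Mex67, SPT10 at 0.62 and RTT109, an H3 acetyltransferase, at -0.92 with Npl3, and YTA7 at 0.58 and RTT109 at -0.97 in no tag. Of 10 histone chaperones and assembly factors, 2 were at least 2-fold lower with Mex67, none with Npl3 and 1 in no tag, with medians of -0.07, -0.07 and -0.04. Their lowest members were CHZ1, a chaperone of H2A.Z with H2B, at -1.84 with Mex67, and VPS75 at -0.77 with Npl3 and -1.37 in no tag.

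The SWR1 complex, which puts H2A.Z into nucleosomes, had medians of 0.01 with Mex67, 0.16 with Npl3 and 0.08 in no tag over 13 genes. Of these, 2 were at least 2-fold higher with Mex67, led by SWR1 itself at 1.22, where 15.4% of all loci were. None was 2-fold apart in the other precipitates. The HTZ1 mRNA itself was at -0.99, -0.84 and -0.93. Of 10 nuclear and cytoplasmic mRNA turnover factors 1 was at least 2-fold lower with Mex67, LRP1 at -1.25, where 12.2% of all loci were. Their medians were -0.47, -0.11 and -0.16. Among the centromeric H3 variant and 2 of its factors, CSE4, the variant, was at -1.47 with Mex67, at -0.08 with Npl3 and at -0.48 in no tag.

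Genes of DNA replication had medians of 0.03 with Mex67, -0.07 with Npl3 and -0.27 in no tag over 29 genes. At least 2-fold lower were 2, 0 and 1 of them and higher 4, 0 and 1. Of all loci, 12.2%, 1.38% and 2.07% were at least 2-fold lower and 15.4%, 2.11% and 6.69% higher. POL30, the sliding clamp, was lowest with Npl3 at -0.76 and in no tag at -1.01. The 9 G1/S genes had medians of -0.54, -0.43 and -0.20, with 2, 2 and 1 at least 2-fold lower and none higher; their lowest members were the cyclin genes CLN2 at -1.32 with Mex67 and CLB6 at -1.28 in no tag, and CDC21 at -1.25 with Npl3. The 7 G2/M genes had medians of -0.57, -0.55 and -0.34, with 1, 1 and 2 at least 2-fold lower. The 6 M/G1 genes had medians of -0.14, 0.19 and -0.16, with none 2-fold apart. All of these medians lay nearer to 0 than the histone median of the same precipitate except that of the G2/M genes with Npl3. In precipitated RNA, fewer cells in S phase, less histone mRNA per cell and a change in what the beads recover cannot be told apart.

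The genes whose profile over the 6 arrays was most like that of the core histones were sought among 5141 named loci. The measure was the root-mean-square difference from the median profile of the 7 measured core histone loci, each gene centred on its own mean. The core profile, relative to its mean, was -0.19 at 42 °C and 0.36 at 25 °C with Mex67, -0.12 and 0.05 with Npl3, and -0.23 and 0.31 in no tag. The closest was SCS2, an ER membrane protein, at 0.0617, with heat differences of -0.56, -0.35 and -0.52. MRE11, a nuclease of DNA break repair, followed at 0.0727, then ARC1, a tRNA synthetase cofactor, at 0.0735, and GCN5, a histone acetyltransferase, at 0.0778. FOL3, MRPL1, IMG1 and THR1 lay between 0.0809 and 0.0926. HHT2, which itself entered the median, was at 0.05, and the other histones lay from 0.20 for HTA1 to 0.76 for HHO1. Pearson correlations with the core profile over the 6 arrays, which ignore the size of the change, were 0.98 for HTA2 and HHT2, 0.94 for HTZ1, 0.85 for HHT1, 0.81 for HTB2, 0.71 for HTA1, 0.50 for HHO1, 0.26 for HTB1 and -0.065 for the H4 probe set. The core loci entered the profile, so these values are a description.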

How the data were processed

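The series holds 1 microarray per group, 6 in all, of RNA from yeast co-immunoprecipitates. The authors deposited normalized log2 values, 1 per probe set and array, in a single table of 10928 probe sets. The R package affy is named, per the submitters' processing notes, without a version; the background correction, normalization and summary steps are not stated in the labels. The label names both a 3' kit and a whole-transcript manual. Columns were matched by strain number, with S read as stressed (42 °C) and US as unstressed (25 °C), which the labels do not spell out.

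Python 3.11.15 with pandas 2.3.3 was used. Probe sets of a locus (5716 for 5667 loci) were averaged, and 5646 loci were named through RefSeq assembly R64, used for names, coding length and which genes neighbour each other. Differences are log2 values of 1 array minus another. A locus was counted when at least 2-fold apart and above the 95th percentile of 4999 S. pombe probe sets in at least 1 array of the comparison. No test was run. The functions were tested on simulated data. Precision is limited by the number of arrays. Named were all histones, the lowest and highest members of the fixed lists per heat comparison, and the 8 loci most like the core histones. Members and lists were chosen with earlier results of these data known. The planned promoter motif search was not run, because no sequence table was at hand. Alternatives were the array median as floor, centring on S. pombe, quantile normalization of S. cerevisiae probe sets, removal of the trend with coding length in 20 bins, and leaving out shared probe sets.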

Additional observations from a re-analysis of the deposited data

Results flagged for a closer look

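These values are listed because single arrays moved in opposite directions under the same contrast; none of the differences was tested. The heat difference of the H4 probe set was 0.075 with Mex67, -0.13 with Npl3 and 0.094 in no tag. Over no tag, with 42 °C before 25 °C, Npl3 gave 0.43 and -0.38 for HTA2 (own probe set) and 0.11 and -0.19 for HHT2. Mex67 gave 0.52 and -0.081 for HHT1 and -0.027 and 0.031 for HTZ1. Differences of S. pombe probe sets, which lie at background, had an SD of 0.22 to 0.26 between any compared pair of arrays. The HTZ1, H4 and HHT2 values and the HHT1 value at 25 °C are smaller in size than 0.22. The spread of histone probe sets, at their higher signal, is not known from single arrays.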

How the results depend on the processing

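Of 165 alternative values (11 medians and 22 counts under 5 settings), 147 stayed close to the reported ones. Close means within 1 SD of S. pombe differences for a median and within 1.5 times for a count. That SD comes from probe sets at background and served as a cutoff only, not as the spread of histone values. The 147 includes values that could hardly move. The medians were taken over all measured histones whatever the floor, so the array median as floor could not change them. Most of the reported counts were 0. The total is therefore no measure of how stable the results are. Removing the trend with coding length moved most of the values that did not stay close. The medians were then -0.14 for heat with Mex67, -0.64 for heat in no tag, -0.998 and -1.11 for Npl3 over no tag at 42 °C and 25 °C, and 1.51 and 1.14 for Mex67 over Npl3. The count at least 2-fold lower became 0 for heat with Mex67, 4 and 5 for Npl3 over no tag and 0 for Mex67 over Npl3 at 42 °C. The count higher became 1 and 0 for Npl3 over no tag and 6 and 6 for Mex67 over Npl3. Shares of all loci were not computed under the alternatives, so these counts have nothing to be set against. Centring on S. pombe or quantile normalization left 1 histone at least 2-fold higher with Npl3 at 42 °C. At 25 °C quantile normalization left 0 there, and S. pombe centring left 0 for Mex67 over Npl3. The sign of a median also differed for heat with Mex67 beyond no tag when centred on S. pombe (-0.012) and for Mex67 over Npl3 at 42 °C without shared probe sets (-0.058). No paired analysis was possible because each group has 1 array and the labels number no replicates. All histone probe sets lay well above background on each array.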
